A study of Mus musculus with 2 samples.

Results

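The miR-7 family of the mouse was examined in the midbrain of newborn pups through its 3 hairpin genes, Mir7-1, Mir7-2 and Mir7b. They were found by matching the gene identifiers of both count tables to GENCODE symbols, and are 3 of the 1973 genes in each table. MicroRNA sequencing was done on total RNA of the midbrain of 2 pups of the strain B6NCrl on postnatal day 0, pup 1 and pup 3. The pups form 1 group without a second age, tissue, genotype or treatment, their sex was not collected, and each library holds a single midbrain. The labels name a separate pup for each library but give both the same donor identifier, so the spread below is that between these libraries as labelled.

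miR-7 is a strongly conserved microRNA of neurons and endocrine cells. Like other microRNAs it represses messenger RNAs that pair with its seed, and it is studied in the dopaminergic neurons of the midbrain. miR-7 is itself controlled by long RNAs: a circular RNA made opposite Cdr1 carries many sites that bind it, and the noncoding RNA Oip5os1, also called Cyrano, has an extensively complementary site that triggers its decay. None of these long RNAs, and no messenger RNA, was measured here.

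The mature sequences come from RefSeq on GRCm38.p6 and are shown because they decide which reads can be assigned to a locus. All 3 hairpins matched by symbol and by position. Each is written 5′ to 3′ with the seed, bases 2 to 8, in capitals.
miR-7a-5p: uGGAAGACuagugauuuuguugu
miR-7b-5p: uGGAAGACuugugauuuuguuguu
miR-7a-1-3p: cAACAAAUcacagucugccaua
miR-7a-2-3p: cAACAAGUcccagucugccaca
miR-7b-3p: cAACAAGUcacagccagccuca

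miR-7a-5p is made by both Mir7-1 and Mir7-2, and miR-7b-5p by Mir7b. The 5p arms share their seed and differ at a single base, A10U, counted from 1 at the 5′ end with the miR-7a base first. Of 1679 mature microRNA names in the RefSeq table, these 2 alone carry the seed GGAAGAC. The 3p arms, the strand opposite the 5p arm in the hairpin stem, differ more. The 3p arm of Mir7-1 differs from that of Mir7-2 at 3 of 22 bases (A7G, A10C and U21C) and from that of Mir7b at 5 (A7G, U14C, U16A, A20U and U21C). The 3p arms of Mir7-2 and Mir7b differ at 4 bases (C10A, U14C, U16A and A20U).

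The hairpins are shown with both mature arms in capitals.
Mir7-1: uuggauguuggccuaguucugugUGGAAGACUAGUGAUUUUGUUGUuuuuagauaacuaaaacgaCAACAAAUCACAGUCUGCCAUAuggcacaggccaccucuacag
Mir7-2: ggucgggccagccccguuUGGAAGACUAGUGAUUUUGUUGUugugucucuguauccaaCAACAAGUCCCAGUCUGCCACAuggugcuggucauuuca
Mir7b: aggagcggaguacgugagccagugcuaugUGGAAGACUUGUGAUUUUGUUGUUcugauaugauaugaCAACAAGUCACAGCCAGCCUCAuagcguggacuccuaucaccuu

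Over whole hairpins, arms included and aligned end to end, Mir7-1 and Mir7-2 were identical in 68.8% of alignment columns, Mir7-1 and Mir7b in 66.9%, and Mir7-2 and Mir7b in 64.3%. The predicted fold of Mir7-1 had the lowest free energy, -46.8 kcal/mol, with 19 bases of the 5p arm paired to the 3p arm. Mir7-2 followed at -40.5 kcal/mol with 18 such bases, and Mir7b at -35.0 kcal/mol with 15, in a hairpin of 111 bases against 108 for Mir7-1 and 97 for Mir7-2. These are predictions from sequence, and none was set against the counts.

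The 3 genes lie on different chromosomes of GRCm38, the assembly also named mm10. Mir7-1 (ENSMUSG00000065434.1) is at chr13:58392779-58392886 on the minus strand, inside Hnrnpk, which encodes an RNA-binding protein. It lay in an intron of all 12 Hnrnpk transcripts that span it, and no exon covered it. Mir7-2 (ENSMUSG00000065609.1) is at chr7:78888277-78888373 on the plus strand between annotated genes, 7481 bases before Aen on the same strand. Mir7b (ENSMUSG00000065491.1) is at chr17:56242988-56243098 on the plus strand, 183 bases after the end of the noncoding gene AC026385.1 on the same strand. The nearest other microRNA gene was 70863 bases from Mir7b, 79630 bases from Mir7-1 and 616891 bases from Mir7-2, so no member sits in a tight cluster of hairpins.

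Both libraries were deposited as raw read counts per gene. Over all genes, pups 1 and 3 had 2337113 and 3195277 own-strand counts, and levels are given as CPM, counts scaled to a total of 1000000. Values given in pairs are in the order pup 1, pup 3. Reads that mapped to several places, 38.7% of all reads in pup 1 and 39.8% in pup 3, were set aside in a row of their own and enter no gene. Of all 1973 genes 359 had 10 counts or more in both pups. Of 13 listed neuronal microRNAs 10 did, none was at 0 in both, and their summed level was 44304 and 49307 CPM. The largest part was Mir137, at 22082 and 26512 CPM. The remaining 3, Mir124a-2, Mir124a-3 and Mir9-2, had between 2 and 14 counts and belong to families whose hairpins share mature sequences. Mir124a-1, of the family of Mir124a-2 and Mir124a-3, was also low, at 27 and 37 counts. Mir9-3, of the family of Mir9-2, had 925 and 1219 counts. The cause of the low counts was not tested.

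That way of counting bears on the miR-7 loci unequally. Mir7-1 and Mir7-2 share a run of 24 bases that begins exactly at the first base of miR-7a-5p, holds all of its 23 bases and adds a single base after it. A read that starts at that base must reach 25 bases to tell the loci apart, and a read that starts a base earlier tells them apart at once.
Shared run of Mir7-1 and Mir7-2: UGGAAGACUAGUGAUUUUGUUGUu
In this run the capitals mark miR-7a-5p. Among windows of 22 bases, 3 of 87 in Mir7-1 and 3 of 76 in Mir7-2 were also found in the other hairpin, and these lie within the 24 shared bases. In Mir7b 0 of 90 windows were found in any other GENCODE transcript, on either strand. The 3 mature 3p arms were each found in their own hairpin and in no other gene, also when a single mismatch was allowed.

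miR-7a-5p reads of the annotated length therefore match both Mir7-1 and Mir7-2, while miR-7b-5p matches Mir7b alone. With a single mismatch allowed, miR-7a-5p also matches Mir7b, and miR-7b-5p also matches Mir7-1 and Mir7-2. How many mismatches the alignment allowed is not given in the sources used here. The tables hold a count per hairpin and not per arm, so the part of each count that came from the 5p or the 3p arm was not analysed here. The search covered annotated transcripts and not the whole genome.

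**Figure D1:**
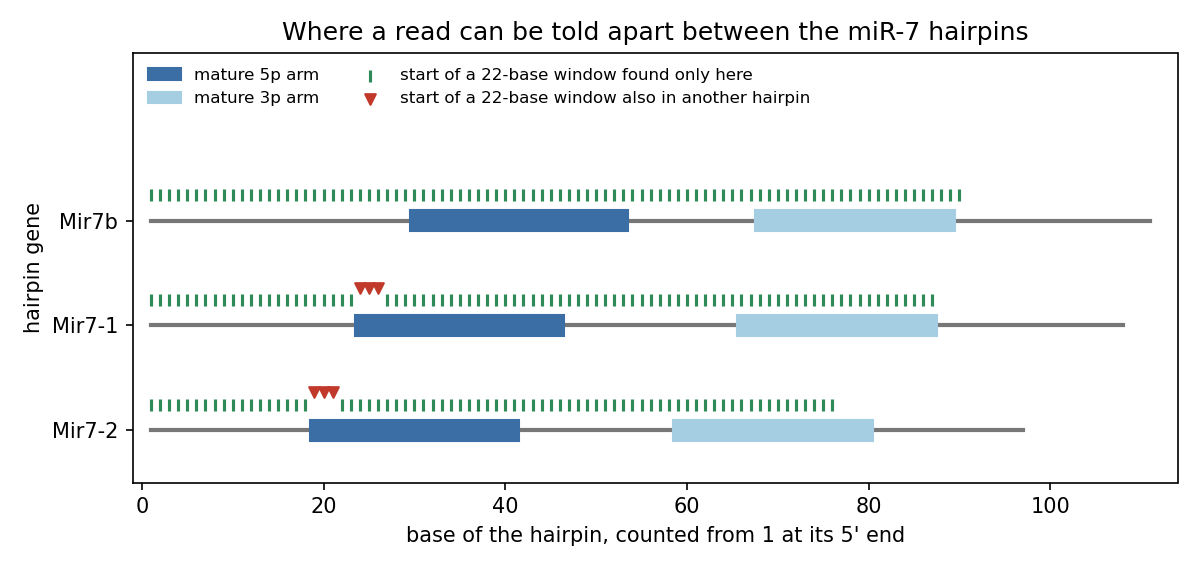
Map of the 3 miR-7 hairpins, with the base of the hairpin counted from its 5′ end on the x axis and the hairpin gene on the y axis. Dark and light boxes are the mature 5p and 3p arms, green ticks the starts of 22-base windows found in no other annotated gene, and red triangles the 3 starts in Mir7-1 and the 3 in Mir7-2 whose window is also in the other hairpin, all at the 5p arm; Mir7b has 0.

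Mir7b was the most counted locus of the family in both pups. It had 9959 counts in pup 1 and 19945 in pup 3, or 4261 and 6242 CPM, with a mean of 5252 CPM ± 1401 (SD, n = 2). That placed it at rank 40 of 1973 genes by mean level, and at rank 43 in pup 1 and 37 in pup 3. Its level was the higher in pup 3, and even the lower pup lay far above both other loci.

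Mir7-1, the locus inside Hnrnpk, was the second. It had 1627 counts in pup 1 and 3774 in pup 3, or 696 and 1181 CPM, with a mean of 939 CPM ± 343 (SD, n = 2) and rank 105. Its SD was 36.5% of its mean, the widest spread of the 3 loci, against 26.7% for Mir7b.

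Mir7-2 was the least counted of the 3 and the closest between pups. It had 1297 counts in pup 1 and 1882 in pup 3, or 555 and 589 CPM, with a mean of 572 CPM ± 24.1 (SD, n = 2) and rank 128. The SD was 4.21% of the mean. Its exact (Clopper-Pearson) 95% intervals, which cover counting error only, ran from 525 to 586 CPM in pup 1 and from 563 to 616 CPM in pup 3. These intervals overlap.

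The order Mir7b, Mir7-1, Mir7-2 was the same in each pup, and the values of neighbouring loci did not overlap. Paired by pup, the exact two-sided permutation test of the log ratio of neighbouring loci gave p = 0.5, the smallest that 2 pairs allow, so this design cannot pass a threshold of 0.05. The gap between Mir7b and Mir7-1 was larger than the SD of either. The gap between the means of Mir7-1 and Mir7-2 was close in size to the SD of Mir7-1, and the distance itself differed between pups. Per 100 bases of hairpin the mean levels were 4731, 869 and 590 CPM, in the same order. Since miR-7a-5p reads are shared, the counted order is not an order of how much microRNA each locus makes. In bulk tissue a change in the number of cells of a type and a change in RNA per cell cannot be told apart.

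**Figure D2:**
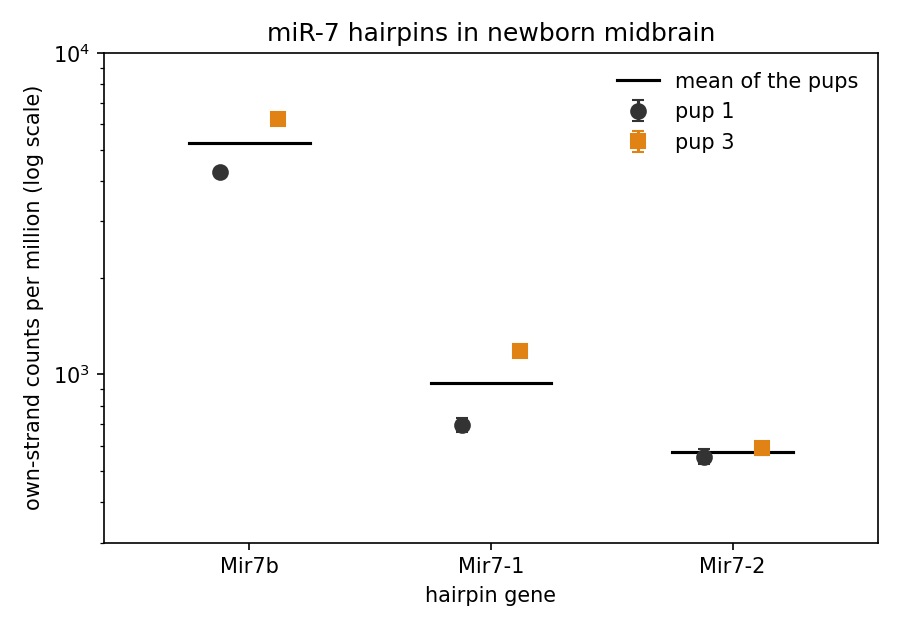
Own-strand CPM on a log axis for Mir7b, Mir7-1 and Mir7-2, with a circle for pup 1, a square for pup 3 and a line at their mean. Error bars are exact 95% counting intervals and are mostly smaller than the symbols; Mir7b lies at 4261 and 6242 CPM, Mir7-1 at 696 and 1181 CPM, and Mir7-2 at 555 and 589 CPM.

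All miR-7 counts lay on the own strand of the hairpin. The opposite-strand column held 0 counts for each of the 3 loci in both libraries, a limit of 1.28 and 0.939 CPM at 3 counts. The levels are thus the same from own-strand counts and from counts on either strand, apart from the library total.

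As a family the loci held 12883 counts in pup 1 and 25601 in pup 3, or 5512 CPM (95% interval 5418 to 5608) and 8012 CPM (7915 to 8110). Mir7b made up 77.3% of the family counts in pup 1 (76.6 to 78.0) and 77.9% in pup 3 (77.4 to 78.4), a share of 77.6% ± 0.427 (SD, n = 2). The rest was divided differently between the pups. Mir7-1 held 12.6% in pup 1 and 14.7% in pup 3, while Mir7-2 held 10.1% and 7.35%.

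Within a library, Mir7b had 6.12 counts for each count of Mir7-1 in pup 1 (95% counting interval 5.81 to 6.45) and 5.28 in pup 3 (5.10 to 5.47). Mir7-1 had 1.25 counts for each count of Mir7-2 in pup 1 (1.17 to 1.35) and 2.01 in pup 3 (1.90 to 2.12). In counts, the 2 loci that encode the same 5p microRNA were thus near each other in pup 1 and well apart in pup 3. Reads of miR-7a-5p that map to both loci enter neither count. These ratios and the family shares thus describe only the reads assigned to a single locus.

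The ratio of pup 3 to pup 1 shows the same unevenness. TMM scaling adjusts the library totals by a trimmed mean of the gene ratios. It put the total of pup 3 at 1.42 times that of pup 1, against 1.37 for the plain totals behind CPM. After this scaling Mir7-1 was 1.64-fold higher in pup 3 (95% counting interval 1.54 to 1.74), a log2 ratio of 0.71. Mir7b was 1.41-fold higher in pup 3 (1.38 to 1.45), a log2 ratio of 0.50. Mir7-2 had a ratio of 1.02 (0.953 to 1.10), a log2 ratio of 0.03. The 286 genes that averaged 50 counts or more were tested. Their median log2 ratio was 0.01, and the central 90% ran from -0.55 to 0.36, which leaves Mir7-1 and Mir7b above that range and Mir7-2 inside it.

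Of the 3 loci, Mir7-1 alone reached 1.5-fold. Of the 286 tested genes 6.64% were at least 1.5-fold apart in either direction, 2.1% were at least 1.5-fold higher in pup 3 and 4.55% at least 1.5-fold higher in pup 1. By ratio Mir7-1 was at place 5 of 286, Mir7b at place 11 and Mir7-2 at place 128. Low-count genes scatter more, so the places were also read among the 161 genes that averaged 1000 counts or more, a limit chosen after the values were seen. There Mir7-1 had the highest ratio, Mir296 followed with a log2 ratio of 0.53, and Mir7b was the third.

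In Fisher's exact test of each gene's counts against the rest of its library, adjusted by Benjamini-Hochberg over the 286 genes, Mir7b (adjusted p = 3.02e-180) and Mir7-1 (adjusted p = 2.21e-64) differed between the libraries and Mir7-2 did not pass (adjusted p = 0.613). The test sets a pair of libraries against each other, with no replicates behind it. At this depth 57.7% of the tested genes passed it, and 29.7% passed it with more in pup 3, so that a pass says little of a single member.

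**Figure D3:**
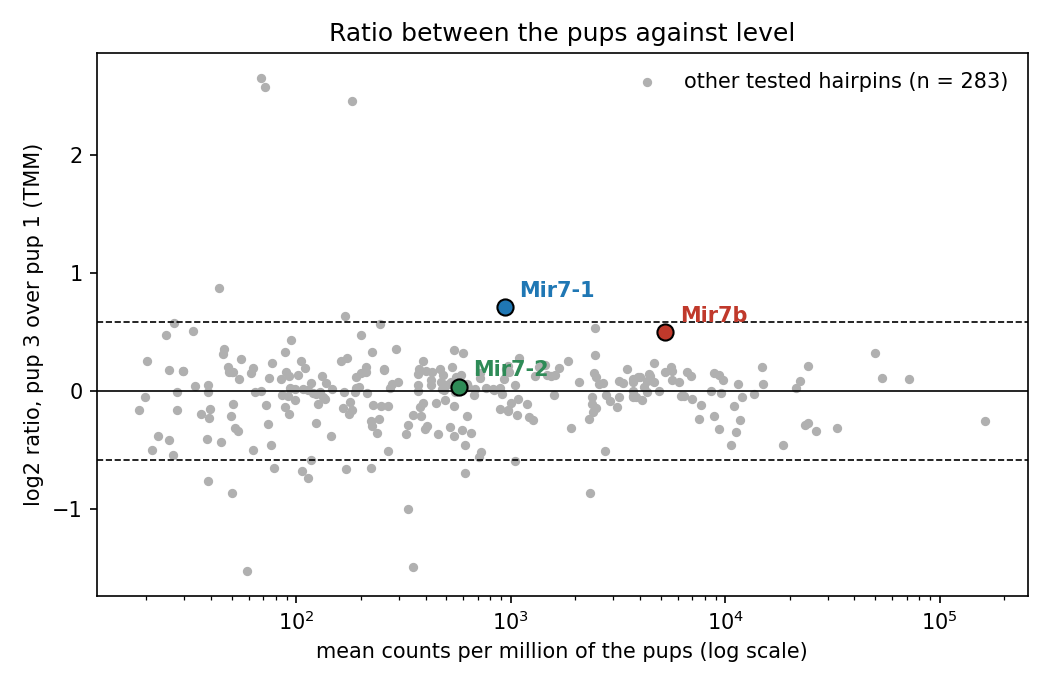
Log2 ratio of pup 3 over pup 1 after TMM scaling against the mean CPM of the pups on a log axis, for the 286 tested genes; the 3 miR-7 hairpins are coloured, the others grey, and dashed lines mark 1.5-fold. Mir7-1 at 0.71 and Mir7b at 0.50 stand at the upper edge of genes of their level, and Mir7-2 at 0.03 lies among the bulk.

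The difference in ratio between loci was tested directly on their counts in 3 pairs, with p-values adjusted over the pairs. The ratio of pup 3 to pup 1 was 1.60 times as large for Mir7-1 as for Mir7-2 (95% interval 1.46 to 1.75, Fisher's exact test, adjusted p = 3.92e-23). It was 1.38 times as large for Mir7b as for Mir7-2 (1.28 to 1.49, adjusted p = 9.31e-17, Fisher's exact test). It was 1.16 times as large for Mir7-1 as for Mir7b (1.09 to 1.23, adjusted p = 4.26e-06, Fisher's exact test). These comparisons need no scaling, since both loci are read in the same library, but their error is counting error only. The pairs with Mir7-2 were added after the values were seen.

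The genes next to each member by level show how pups compare at the same depth. Around Mir7b, the genes above were Mir744, with a log2 ratio of 0.17, and Mir541, with 0.20, and those below were Mir21a, with 0.16, and Mir140, with -0.00281. Around Mir7-1, Mir383 had -0.16, Mir101a 0.18, Mir27b 0.10 and Mir340 -0.03. Around Mir7-2, Mir485 had -0.33, Mir203 0.13, Mir501 0.00419 and Mir665 0.12. None of the 8 neighbours of Mir7b and Mir7-1 had a ratio as far from 0 as the member beside it, whereas 3 of the 4 neighbours of Mir7-2 did.

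By ratio, a pattern over only 2 libraries, the genes nearest to Mir7-1 were Mir183 with a log2 ratio of 0.63, Mir205 with 0.58 and Mir182 with 0.56. Those nearest to Mir7b were Mir216a with 0.51, Mir144 with 0.48 and Mir494 with 0.48. Those nearest to Mir7-2, among many at that value, were Mir154, Mir669c and Mir221, each with 0.03. Mir7-1 and Mir7b were not among the 3 nearest of each other.

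Listed microRNAs of other cell types differed between these libraries as well. Mir182, Mir183 and Mir96, a cluster of pineal and sensory cells, summed to 401 and 614 CPM, with log2 ratios of 0.56, 0.63 and 0.43. All 3 passed the adjusted Fisher's exact test, against 57.7% of all tested genes. Of the 6 listed microRNAs of pituitary and other epithelial or endocrine cells, Mir429 was at 53.9 and 308 CPM, Mir200b at 18.0 and 118 CPM and Mir200c at 19.7 and 123 CPM. Mir200a and Mir141, below the count minimum, each had 4 counts in pup 1, and 81 and 64 in pup 3. The list summed to 332 and 872 CPM, and none of its members was at 0 in either library. Mir375, which marks endocrine cells that also hold miR-7, was at 237 and 278 CPM, a log2 ratio of 0.18.

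The 9 tested members of the neuronal list had log2 ratios from -0.14 to 0.21 with a median of -0.10, against 0.01 over all tested genes. Of these 0 of 9 reached 1.5-fold, beside 6.64% of all tested genes, and 5 of 9 passed the adjusted Fisher's exact test, 2 with more in pup 3 and 3 with more in pup 1, beside 57.7% of all. The choroid plexus and ciliated list, 4 tested of 7, ran from -0.25 to 0.26 and summed to 3943 and 4310 CPM. Red blood cell microRNAs summed to 125 and 74.2 CPM, with Mir451a lower in pup 3 at a log2 ratio of -1.53 and Mir144 at 0.48. Mir7b and Mir7-1 had more in pup 3, as did all tested members of the pineal and the epithelial list. That direction is common, since the gene at place 150 of all 286 by ratio still had more in pup 3. The neuronal, the choroid plexus and the red blood cell list each had ratios above and below equal levels. In the epithelial list Mir429, Mir200c and Mir200b were 5.49-, 5.97- and 6.30-fold higher in pup 3, and Mir375 was 1.13-fold higher. Mir7b and Mir7-1 were 1.41- and 1.64-fold higher in pup 3, while the interval of Mir7-2 spans equal levels. The part of these cell types in the miR-7 values was not tested.

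**Figure D4:**
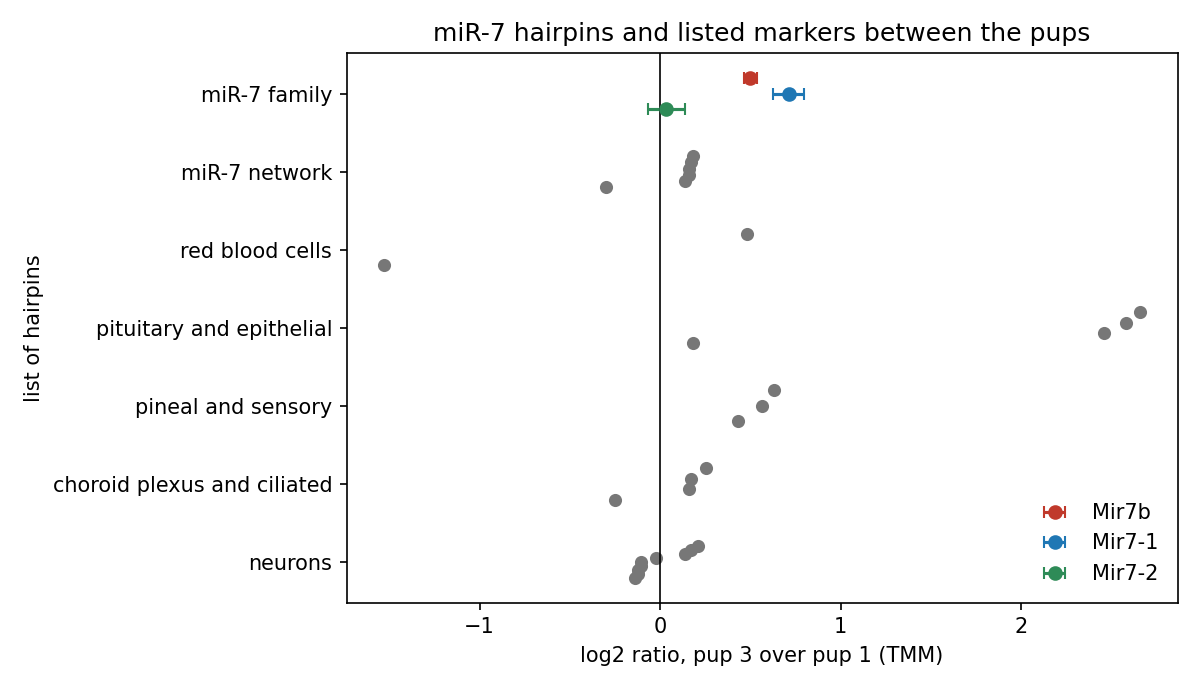
Log2 ratio of pup 3 over pup 1 after TMM scaling on the x axis for the 3 miR-7 hairpins, with 95% counting intervals, and, as grey points, for the tested members of each list. The epithelial list has 3 points between 2.46 and 2.65, the pineal and sensory list lies from 0.43 to 0.63, and the neuronal list from -0.14 to 0.21.

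Other microRNAs studied beside miR-7 were read from a list of 6. Mir671 directs the cutting of the circular RNA that binds miR-7, and it had 396 and 459 CPM, 427 ± 44.6 CPM (SD, n = 2). Mir153, a microRNA of neurons, was the highest of the list at 8701 and 9902 CPM. Mir34c and Mir34b, made from a shared precursor and abundant in ciliated cells, had 979 ± 102 and 29.7 ± 3.21 CPM (SD, n = 2). Mir214, a microRNA of mesenchymal cells, was at 245 and 206 CPM.

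All 6 passed the count minimum, and 0 reached 1.5-fold in either direction, against 6.64% of all tested genes. The median log2 ratio of the list was 0.16, from -0.30 for Mir214 to 0.18 for Mir375, against 0.01 over all genes tested. In the adjusted Fisher's exact test 4 of 6 were higher in pup 3, 1 of 6 (Mir214) was higher in pup 1, and Mir34b did not pass. Of all tested genes 57.7% passed this test and 29.7% passed with more in pup 3. Mir7b counts alone came to less than those of Mir153 in both pups.

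Target sequence was read from the GENCODE transcripts as background to what the 5p arms can pair with. The motif searched was GTCTTCC, the complement of the seed, on the strand of the transcript. Its extension GTCTTCCA contains it and was counted separately.

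Oip5os1, listed in GENCODE as 1700020I14Rik, held 2 matches in its longest transcript of 8300 bases, both followed by A. Of the 937 genes with a transcript at least that long, 49.5% held the motif in the first 8300 bases and 19.1% its extension. The matches are at bases 762 and 2952 of the transcript and are shown in that order.
Oip5os1 first match: cttcaggttttttttttaatGTCTTCCa
Oip5os1 second match: agaacaacaaaatcaccaatGTCTTCCa

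The second match has, before the seed match, a run complementary to 13 bases of miR-7a-5p, from base 11 to its last base, 23. Against miR-7b-5p, the run is 14 bases, from base 11 to base 24. At the first match the longest such run is 3 bases for either microRNA. The strand opposite the Cdr1 exon, 1554 bases of the region that the circular RNA is made from, held 79 matches, of which 2 were followed by A. Among 23496 genes with a transcript at least that long, 18.9% held the motif on the opposite strand of its first 1554 bases. The extension was held there by 6.21%. The differing base of the miR-7 5p arms, base 10, lies outside the seed, so these matches are the same for miR-7a and miR-7b. A match is a description of sequence, and binding was not measured.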

How the data were processed

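MicroRNA sequencing libraries of 2 newborn midbrains were read from 1 deposited table each. Per the deposited description files the authors made raw counts per gene from alignments to mm10 with GENCODE M4. For the aligner, the mismatch limit and the counting tool, no name or value is given in the sources used here. The own-strand count column was used. Rows that name no gene (57.2% of reads in pup 1, 56.7% in pup 3) stayed out of totals. Symbols came from GENCODE M21 and matched 1894 of 1973 genes.

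Computed here were CPM, log2 ratios with TMM totals (edgeR 4.0.16, prior count 0.5), exact 95% intervals, and two-sided Fisher's exact tests on the TMM totals over the genes averaging 50 counts or more (scipy 1.17.1). The ratio and the test were checked on simulated counts that held counting error only. Variation between animals or library preparations was not simulated. Intervals and floors (3 counts) cover counting error only. Hairpins were folded with RNAfold 2.7.2. The members and lists were chosen with earlier results of these data known. Named genes were the members, their 2 neighbours by level on each side and the 3 nearest by ratio. The listed genes studied beside miR-7 and the tested markers were also named. Mir296 and markers under that minimum were named after their values were seen. Mir7j and Mir99a were outside the planned names too. With 1 group no quasi-likelihood test between conditions was possible. The planned genome-wide search for copies was replaced by a search of GENCODE transcripts. Alternatives were other scalings (DESeq2 1.42.0 size factors, plain CPM), count minimums, prior counts, either-strand counts, other totals and each pup alone. Of the planned seed-match targets, 1 is not reported here.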

Additional observations from a re-analysis of the deposited data

How the results depend on the processing

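Of 55 alternative values, 49 were counted as unchanged, and none reversed. Unchanged meant the same direction and side of the threshold, or a move smaller than the spread between the pups. For numbers of genes it meant a change of at most 1.5-fold. Part of these could not come out otherwise. With 2 pups, each pup alone always lies within that spread. The other count minimums left the log2 ratios as they were and could change only the adjusted p. The other prior count could change only the log2 ratios, since Fisher's exact test does not use it. Comparisons between miR-7 loci, and the share of Mir7b, are identical on either-strand counts, since the opposite strand held 0 counts there. Under all alternatives run, the log2 ratio stayed between 0.70 and 0.76 for Mir7-1, between 0.49 and 0.55 for Mir7b and between 0.02 and 0.09 for Mir7-2, whose adjusted p (Fisher's exact test) ran from 0.157 to 0.824. The mean level of Mir7-2 was 683 CPM when Mir99a, the most abundant gene, was left out of the library totals, against 572 CPM. The number of hairpins at least 1.5-fold apart was 19 of 286, 45 of 372 with a mean count of at least 10, and 259 of 697 with no minimum. Among the 161 genes averaging 1000 counts or more, 0 had a higher ratio than Mir7-1, 2 than Mir7b and 76 than Mir7-2. Among all 286 tested genes these numbers were 4, 10 and 127. With each pup alone the levels ran from 696 to 1181 CPM for Mir7-1, from 555 to 589 CPM for Mir7-2 and from 4261 to 6242 CPM for Mir7b, and the share of Mir7b in the family from 77.3% to 77.9%. With 1 group there was no second group to pair by replicate number, and loci were compared within each pup. Depth limits the ratios little, but 2 libraries cannot separate animals from library preparation, and reads of miR-7a-5p that map to several places are missing from every value.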

Other observations

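A further hairpin, Mir7j, carries the number of the family in its symbol but not its sequence. It lies at chr3:140028249-140028370 on the plus strand, and RefSeq names its mature product let-7j. Its sequence is shown with the seed in capitals above that of let-7a-5p, the founding member of the let-7 family, for comparison.
let-7j: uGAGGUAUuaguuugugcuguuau
let-7a-5p: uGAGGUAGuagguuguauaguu
Mir7j had 480 counts in pup 1 and 431 in pup 3, or 205 and 135 CPM, with 0 counts on the opposite strand. Its log2 ratio of pup 3 to pup 1 was -0.66 (0.555 to 0.723-fold, adjusted p = 3.38e-11 by Fisher's exact test over the 286 tested genes), lower in pup 3 where Mir7-1 and Mir7b were higher.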
